A study of Arabidopsis thaliana with 27 samples.

Results

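Leaves of wild-type Arabidopsis thaliana (accession Col-0) that had received the pathogen Psm 24 h earlier were compared with Col-0 leaves harvested 9 h after the bacterial strain hrcC. The members are 5 of the 27 one-colour arrays of the study, chosen by their titles: 3 arrays of Psm at 24 h (sets 1, 2 and 3) and 2 arrays of hrcC at 9 h (sets 1 and 2). All 181 probes with a single gene name, of 576 probes, were tested. Psm is given in the labels as Pseudomonas syringae ES4326, although the source label of 2 of the Psm arrays leaves the strain out. The hrcC strain is a Pseudomonas syringae pv. tomato DC3000 mutant that lacks a working type III secretion system. Both groups are untransformed Col-0 plants, 4 weeks old, grown at 22 °C and 75% humidity under 12 h days, with 9 plants in a pot. RNA of each array came from 2 leaves of each plant pooled over 3 pots, so an array averages many plants. Infiltration took place in the morning, so the 9 h leaves were taken later on the same day and the 24 h leaves on the next morning. Strain, time after infiltration and time of day therefore changed together between the groups, and their parts in any difference cannot be told apart. The same treatments of pad4-1, of a mutant in cbp60g and cbp60h, and of a mutant in these and pad4 are compared further below, and cbp60h leaves with hrcC (3 arrays at 9 h) enter only the shared estimate of the spread.

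Plants detect bacteria at the cell surface through conserved molecules such as flagellin, which starts pattern-triggered immunity. Virulent pseudomonads inject effector proteins through the type III secretion system, which dampen that response, while a strain without the system mainly shows the plant its surface molecules. Later defence runs largely through salicylic acid, which acts against such bacteria, and in part against the jasmonate and ethylene branch, whose classic marker is the defensin gene PDF1.2.

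The arrays of a group resembled each other. Over all probes the correlation was 0.936 to 0.968 between Psm arrays and 0.916 between the hrcC 9 h arrays, against 0.666 to 0.758 between the groups. Medians of all probes were 4.48, 4.44 and 4.41 with Psm and 4.27 and 4.21 with hrcC on the deposited log2 brightness scale, on which a difference of 1 is a 2-fold change. The leaf, root and other cell type lists had 0 named members, so the tissue label was not checked. The LHCB4.3 gene (AT2G40100, a light-harvesting antenna protein), picked after its values were seen, read 2.68, 3.74 and 4.05 with Psm and 4.16 and 4.41 with hrcC. It just missed the test (difference -0.80, adjusted p = 0.0505 in limma) but passed once set was added to the fit as a block (-0.88, adjusted p = 0.0237 in limma). It stayed uncalled in only 2 of the 9 other settings, and it was called without Psm replicate 2 or Psm replicate 3. Over its settings and left-out arrays it ran from -1.16 after quantile normalization (called) to -0.39 without Psm replicate 1 (not called). In bulk leaf RNA, fewer cells of a type and less RNA per cell cannot be told apart.

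With limma, 60 of 181 genes passed an adjusted p of 0.05, which is 33.1% of those tested. Of these, 41 were higher with Psm (22.7%) and 19 were lower (10.5%). The split depended on scaling: it was 28 higher and 40 lower after quantile normalization, and 34 and 29 after each array was centred on its median. These scalings moved the median difference of the named genes from 0.14 to -0.11 and to -0.07. Differences exceeded 1 for 34 of the higher and 14 of the lower genes, and exceeded 2 for 14 and 4. The arrays of the groups did not overlap for 58 of the 60 called genes, against 55.8% of all 181. All 60 had the same sign in set 1 and in set 2, each taken alone, as did 144 of all 181 genes. The overlap and the sign were read on the arrays that made the calls, so neither is a separate test. Of the 60, 28 (19 higher and 9 lower) kept their call under all of the 9 other settings that tested them and without each of the 5 arrays. Without hrcC replicate 2 the higher calls numbered 26, and without Psm replicate 1 the lower calls numbered 12.

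**Figure D1:**
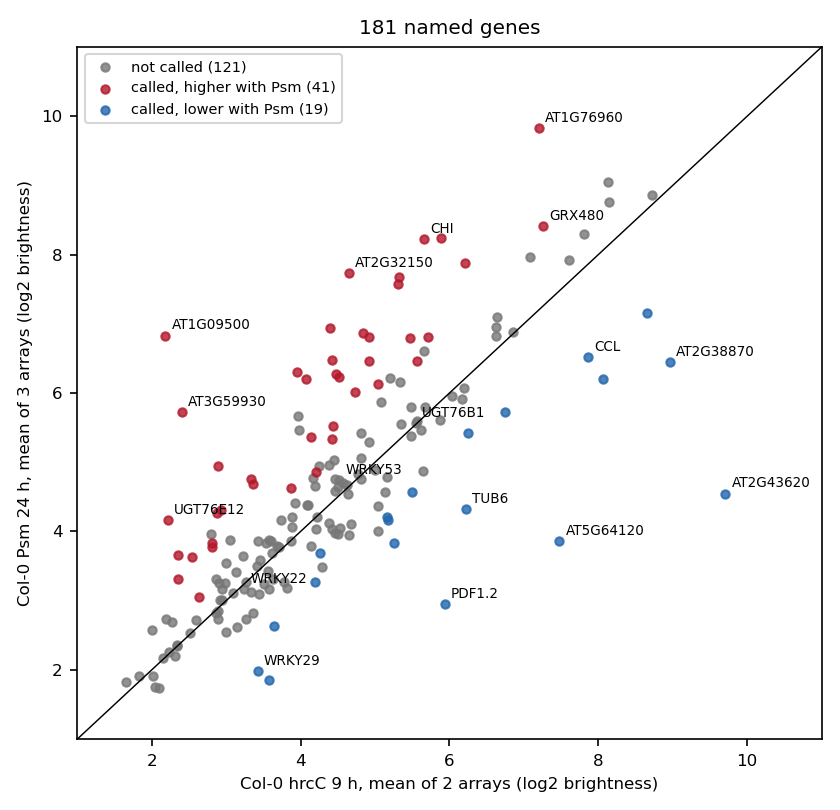
Mean log2 brightness of the 181 named genes in Col-0, with hrcC at 9 h (2 arrays) on the x axis and Psm at 24 h (3 arrays) on the y axis. Red points are the 41 genes called higher with Psm, blue points the 19 called lower, grey points the 121 not called, and the line marks equal levels. AT1G09500 lies farthest above the line and AT2G43620 farthest below it.

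The largest rise was that of AT1G09500, an alcohol dehydrogenase-like gene. It read 7.01, 6.28 and 7.20 with Psm and 1.99 and 2.38 with hrcC. Every Psm array stood far above both hrcC arrays. The difference was 4.64 (SE 0.598, adjusted p = 1.54e-05 in limma), or 25-fold, from 2.18 ± 0.27 (SD, n = 2) to 6.83 ± 0.48 (SD, n = 3). The hrcC readings lay near the lowest of all probes on those arrays (1.21 and 1.61), so the fold depends on a dim baseline. AT3G59930, which encodes a defensin-like protein, read 6.61, 5.49 and 5.08 against 2.58 and 2.23 and rose by 3.32. AT2G32150, of the haloacid dehalogenase-like hydrolases, read 7.79, 8.09 and 7.33 against 4.66 and 4.62 and rose by 3.09. For both genes the groups lay well apart, with the widest spread among the Psm arrays of AT3G59930. The hrcC readings of AT3G59930 were low as well.

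The other large rises included those of 3 enzyme genes. GSTF3 (AT2G02930), a glutathione S-transferase, read 8.11, 7.97 and 8.65 with Psm and 5.85 and 5.93 with hrcC, a rise of 2.35 (SE 0.516, adjusted p = 0.00166 in limma). UGT76E12 (AT3G46660), a UDP-dependent glycosyltransferase, read 4.43, 4.03 and 4.04 against 1.72 and 2.71, which are low readings, and rose by 1.95. AT2G34810, a berberine bridge enzyme-like oxidase gene, read 7.80, 8.16 and 7.07 against 5.38 and 5.26 and rose by 2.36. These genes were picked among called genes whose groups do not overlap, so the lack of overlap is no further support. AT1G76960 read 9.49, 10.17 and 9.80 with Psm against 8.11 and 6.30. Its rise of 2.62 was 1.71 without hrcC replicate 2. AT3G13950, AT1G23040 and AT2G28400 rose by 2.54, 2.35 and 2.28, and AT2G28400 by 1.39 without hrcC replicate 2. AT1G68620, a carboxylesterase-like gene, rose by 2.13, and EXO (AT4G08950, EXORDIUM, linked to cell expansion) rose by 2.05. ATG8E (AT2G45170), a ubiquitin-like protein of autophagy, rose by 1.89 but lost its call without hrcC replicate 2 (1.07) and without Psm replicate 1 (1.47).

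**Figure D2:**
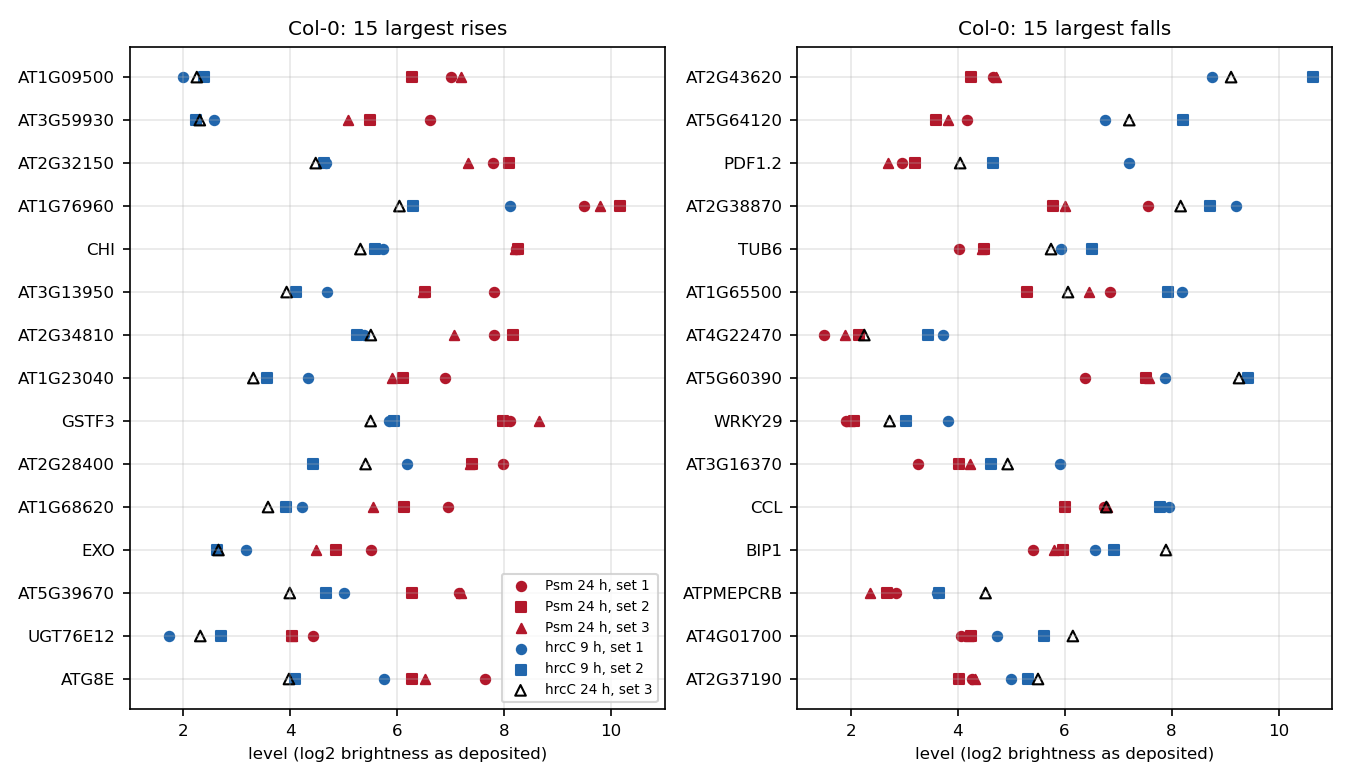
Log2 brightness on each Col-0 array for the 15 largest rises (left) and the 15 largest falls (right) among called genes whose groups do not overlap. Red marks are Psm at 24 h, blue marks hrcC at 9 h and open triangles the single hrcC array at 24 h, with the shape giving the set. AT1G09500 reads at least 6.28 with Psm and at most 2.38 with hrcC at 9 h.

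The largest fall was that of AT2G43620, a chitinase gene. It read 4.67, 4.25 and 4.72 with Psm and 8.76 and 10.65 with hrcC, so the groups stood far apart while the hrcC arrays differed from each other. The difference was -5.16 (SE 0.41, adjusted p = 3.55e-08 in limma), or 35.7-fold lower. AT5G64120, a class III peroxidase gene, read 4.17, 3.59 and 3.83 against 6.75 and 8.21, a difference of -3.62 (SE 0.32, adjusted p = 1.01e-07 in limma). PDF1.2 (AT5G44420) read 2.95, 3.21 and 2.69 with Psm and 7.21 and 4.66 with hrcC, a difference of -2.98 (SE 0.756, adjusted p = 0.00495 in limma). The hrcC arrays of PDF1.2 lay far apart, and without hrcC replicate 1 the difference was -1.71 and not called.

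The other large falls included genes of a tubulin, a pectin methylesterase and a ribosomal protein. TUB6 (AT5G12250), a beta-tubulin gene, read 4.02, 4.48 and 4.45 with Psm and 5.93 and 6.51 with hrcC, a difference of -1.90. ATPMEPCRB (AT4G02330), a pectin methylesterase gene, fell by 1.01, and AT2G37190, a ribosomal protein gene, fell by 0.96. AT5G60390, which encodes the elongation factor EF1A, was the only measured gene of the 5 on the housekeeping list. It fell by 1.49, but by 0.71 without hrcC replicate 2 and by 1.1 without Psm replicate 1, both not called. Without hrcC replicate 1 it fell by 2.26. AT4G22470, of the lipid transfer protein family, read 1.5, 2.16 and 1.89 against 3.72 and 3.44 and fell by 1.73. Its Psm readings were low, and the setting that dropped the dimmest 25% of genes did not test it. AT1G65500 fell by 1.86, and lost its call without Psm replicate 2 (-1.41) and without hrcC replicate 1 (-1.73). The GDSL lipase-like genes AT3G16370 and AT1G54010 fell by 1.42 and 0.92. AT3G16370 lost its call without Psm replicate 1 (-1.13) and without hrcC replicate 1 (-0.78). AT1G54010 lost its call without Psm replicate 1 (-0.72), hrcC replicate 1 (-0.89) or hrcC replicate 2 (-0.95).

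Pathway, housekeeping and cell type lists with 130 genes had 13 named members, of which 1 rose, 5 fell and 7 did not pass. Over all genes 22.7% rose and 10.5% fell. The housekeeping gene AT5G60390 is among the 5 that fell. The median difference of the 13 named members was -0.51, against 0.14 over all 181 genes. GRX480 (AT1G28480), a glutaredoxin of the salicylic acid response, was the member that rose. It read 8.70, 8.26 and 8.28 with Psm and 7.65 and 6.87 with hrcC, a rise of 1.16 (SE 0.315, adjusted p = 0.00834 in limma) without overlap, and 0.77 and not called without hrcC replicate 2. WRKY53 (AT4G23810), a transcription factor of the same response, differed by 0.22 and UGT76B1 (AT3G11340), which glucosylates regulators of salicylic acid signaling, by 0.02. Neither passed, and both turned negative after quantile normalization, at -0.04 and -0.36.

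Of the pattern-triggered list, WRKY29 (AT4G23550), a transcription factor induced by flagellin, read 1.91, 2.05 and 1.98 with Psm and 3.82 and 3.03 with hrcC. All Psm arrays were lower, and the difference was -1.44 (SE 0.256, adjusted p = 0.00033 in limma). The Psm readings were low, and WRKY29 was not tested in the setting that dropped the dimmest 25% of genes. WRKY22 (AT4G01250), which is often named beside it, differed by -0.08 and did not pass. CCL (AT3G26740), a transcript linked to the circadian clock, read 6.74, 6.01 and 6.80 against 7.95 and 7.79, a difference of -1.35 (SE 0.331). BIP1 (AT5G28540), a chaperone of the endoplasmic reticulum, differed by -1.01, and was not called without Psm replicate 1 (-0.86), hrcC replicate 1 (-1.19) or hrcC replicate 2 (-0.84). AT2G04400 of tryptophan synthesis (-0.25), COR47 of the cold response (-0.39), and APS3 and SIR of sulfate assimilation (-0.51 and -0.67) did not pass. After quantile normalization APS3 and SIR were called, at -0.81 and -1.05, and SIR also after median centring (-0.87) and without hrcC replicate 1 (-1.0).

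Protein families were grouped from general knowledge after the values were seen, and their counts are a description, to be read beside the 22.7% of all genes that rose and the 10.5% that fell. Of 3 chitinase genes, CHI (AT2G43570) rose while AT2G43620 and AT4G01700 fell. CHI was tight within groups, at 8.23, 8.25 and 8.19 against 5.74 and 5.59, a rise of 2.56 (SE 0.317, adjusted p = 1.14e-05 in limma). AT4G01700 fell by 1.00, and by 0.55 and not called without hrcC replicate 2. Of 3 genes of defensins, defensin-like proteins and protease inhibitors, AT3G59930 rose, whereas PDF1.2 and the protease inhibitor gene AT2G38870 fell. AT2G38870 read 7.55, 5.79 and 6.0 against 9.20 and 8.72, a difference of -2.51. Of 3 class III peroxidase genes AT5G64120 fell, and AT2G37130 and AT5G19890 did not pass, at -0.49 and 0.41. AT2G37130 was called after quantile normalization, at -0.83.

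**Figure D3:**
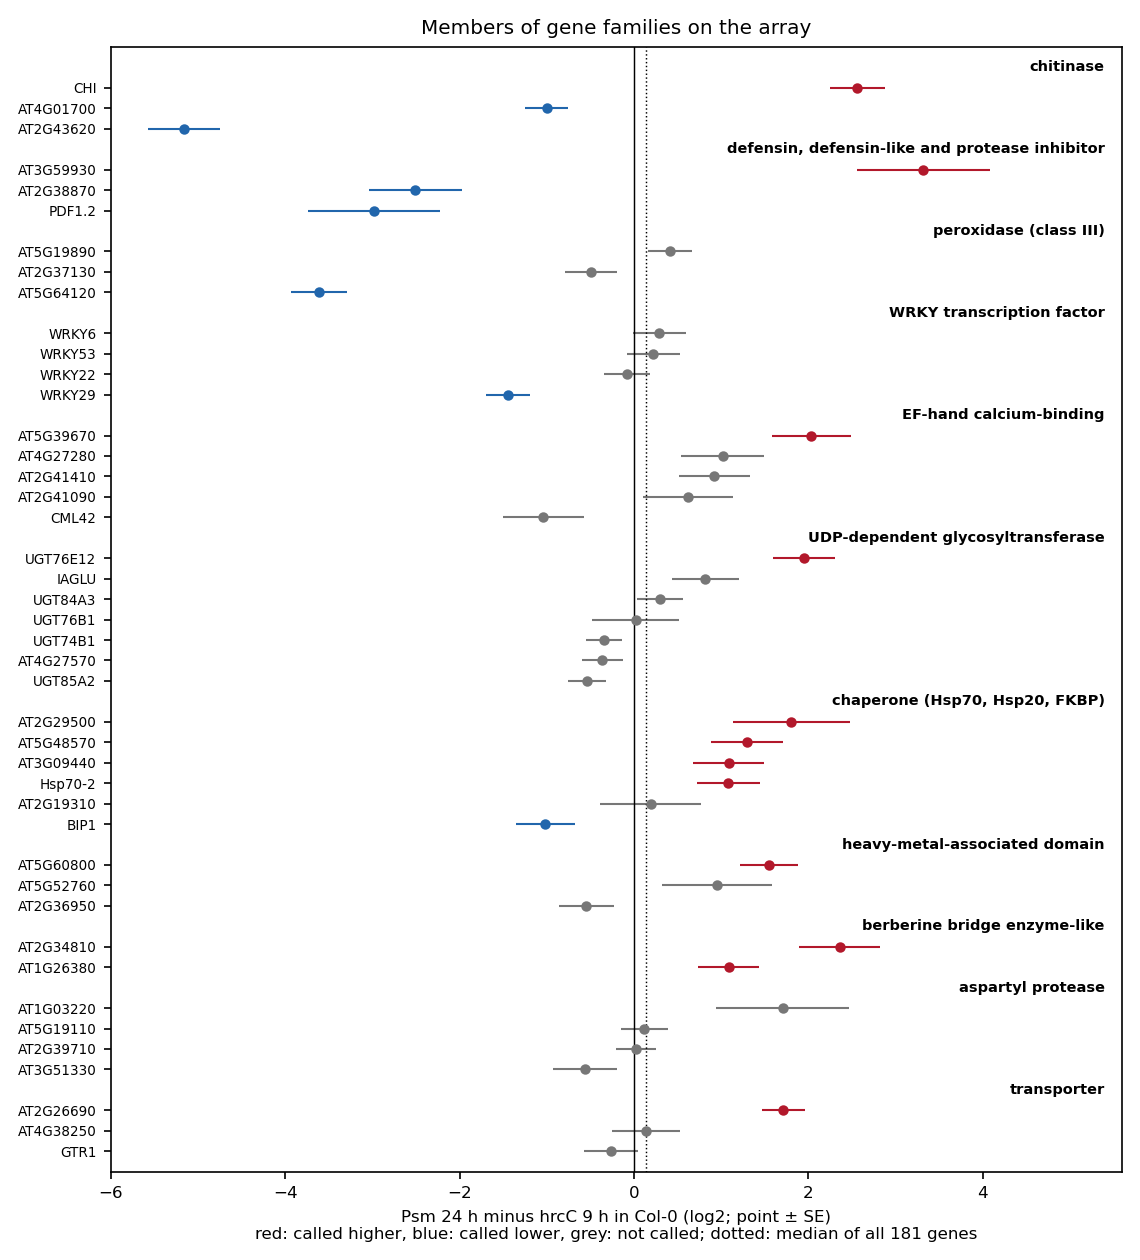
Difference in log2 brightness between Psm at 24 h and hrcC at 9 h in Col-0 for members of gene families, as the fitted value with its SE. Red is called higher, blue called lower and grey not called, and the dotted line is the median of all 181 genes (0.14). The 3 chitinase genes range from -5.16 to 2.56.

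Among the 6 chaperone genes of these families, 4 rose, BIP1 fell and AT2G19310 did not pass. The small heat shock protein gene AT2G29500 rose by 1.81, AT5G48570 of the FKBP family by 1.3, and the cytosolic Hsp70 genes AT3G09440 and Hsp70-2 (AT5G02490) by 1.09 and 1.08. None of the 4 rises kept its call throughout. AT2G29500 was not called without any 1 of the 5 arrays (1.53 to 1.99). Without hrcC replicate 2 and without Psm replicate 2, AT5G48570 (1.05 and 1.08), AT3G09440 (0.61 and 0.85) and Hsp70-2 (0.76 and 1.05) were not called, and without Psm replicate 1 the Hsp70 genes stood at 1.00 and 0.94. After quantile normalization AT2G29500 (1.45), AT3G09440 (0.67) and Hsp70-2 (0.70) were not called. After median centring AT2G29500 and AT3G09440 were not called either. AT2G29500 also lost its call with sets 1 and 2 only, and AT3G09440 with the 5 Col-0 arrays alone. The groups of AT3G09440 overlapped, with Psm set 3 at 6.14 and hrcC set 1 at 6.19.

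Of 5 EF-hand calcium-binding genes, AT5G39670 rose. It read 7.15, 6.28 and 7.19 with Psm and 5.0 and 4.67 with hrcC, a rise of 2.04 (SE 0.456, adjusted p = 0.00195 in limma). AT4G27280, AT2G41410, AT2G41090 and CML42 (AT4G20780) did not pass, at 1.02, 0.92, 0.62 and -1.04. CML42 was called after quantile normalization (-1.43), after median centring (-1.24) and without hrcC replicate 2 (-1.74). With the set as a block, AT4G27280 (1.19, adjusted p = 0.0435 in limma) and AT2G41410 (1.00, adjusted p = 0.0421 in limma) were called, and AT4G27280 also without hrcC replicate 1 (1.84).

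Of 7 glycosyltransferase genes, UGT76E12 rose and 6 did not pass. The block added a call for UGT85A2 (AT1G22360), from -0.54 to -0.63 (adjusted p = 0.0196 in limma), and so did the random block (-0.58), quantile normalization (-0.79) and median centring (-0.75). Both berberine bridge enzyme-like genes rose, AT2G34810 by 2.36 and AT1G26380 by 1.09. AT1G26380 was not called after quantile normalization (0.77), nor without Psm replicate 1 (1.02), hrcC replicate 1 (0.98) or hrcC replicate 2 (1.19). Of 3 heavy-metal-associated domain genes AT5G60800 rose by 1.55, and by 1.07 and not called without hrcC replicate 2. AT5G52760 and AT2G36950 did not pass at 0.95 and -0.55, but were called with the block, at 1.26 (adjusted p = 0.0279 in limma) and -0.65 (adjusted p = 0.0302 in limma). AT2G36950 was also called after quantile normalization (-0.85) and median centring (-0.75). AT5G52760 ran from -0.18 without hrcC replicate 2 to 2.09, then called, without hrcC replicate 1. AT2G26690, of the nitrate transporter family, rose by 1.71, while the glucosinolate transporter gene GTR1 (AT3G47960) and AT4G38250 did not pass, at -0.26 and 0.14.

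Of 4 aspartyl protease genes none passed. AT1G03220 had the largest difference of the genes not called. It read 5.39, 5.78 and 5.85 with Psm and 3.83 and 4.11 with hrcC, a difference of 1.71 (SE 0.765, adjusted p = 0.0924 in limma) without overlap, and it was called when the 5 Col-0 arrays alone were fitted (adjusted p = 0.00226 in limma). AT3G51330 stood at -0.56, and was called with the block (-0.73, adjusted p = 0.0391 in limma), with sets 1 and 2 only (-0.78) and after quantile normalization (-0.98). AT5G19110 and AT2G39710 differed by 0.12 and 0.03.

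A single Col-0 array of set 3 was labelled hrcC 24 h. It has no replicate and entered no test, but it matches the Psm arrays in time. Its correlation over all probes was 0.902 and 0.940 with the hrcC 9 h arrays and 0.646 to 0.702 with the Psm arrays. Of the 41 genes called higher, 38 read nearer the hrcC 9 h mean than the Psm mean on it, and of the 19 called lower 14 did. Over all 181 genes the share was 71.3%, and 77 of the 121 genes not called (63.6%) read nearer the hrcC 9 h mean. Nearer did not mean equal. Of the 41 higher genes, 21 read below both hrcC 9 h arrays and 14 within their range. Of the 19 lower genes, 5 read above both and 6 within their range. These range counts were not made over all 181 genes, so they have no share to be read against. The median of all probes was 4.12 on the hrcC 24 h array, against 4.27 and 4.21 on the hrcC 9 h arrays. AT1G09500 read 2.25 there, CHI 5.31, AT2G43620 9.11 and AT5G64120 7.21, all on the hrcC side. AT3G57020, AT3G09440 and FATB (AT1G08510) among the higher genes, and PDF1.2, AT1G65500, AT4G22470, CCL and AT1G29950 among the lower, read nearer Psm. FATB was not called after quantile normalization (0.54), and AT1G29950 (-0.58) kept its call with Psm replicate 3 left out but not without any of the other 4 arrays (-0.69 to -0.48). CCL read 6.78 there, within its Psm range, and PDF1.2 read 4.05.

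**Figure D4:**
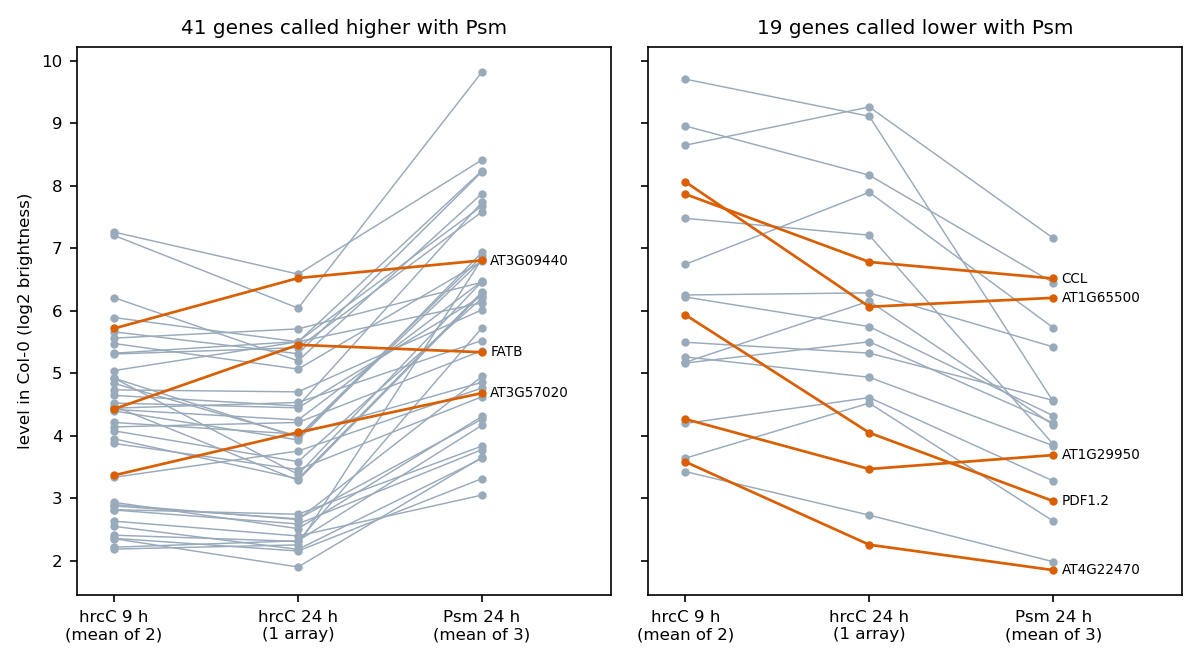
Log2 brightness in Col-0 of the 41 genes called higher (left) and the 19 called lower (right), as the mean of 2 hrcC arrays at 9 h, the single hrcC array at 24 h and the mean of 3 Psm arrays at 24 h. Orange lines are the 3 higher and 5 lower genes whose hrcC 24 h value is nearer the Psm mean.

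The same comparison was made in 3 mutants, namely pad4-1, cbp60g cbp60h (the double mutant) and cbp60g cbp60h pad4 (the triple mutant), each with 3 Psm and 2 hrcC arrays of its own. These genes act in salicylic acid signaling, and their own probes are not among the named ones. The double mutant had 42% of its genes called (32% higher, 9.94% lower). In pad4-1 the share was 32.6% (21% higher, 11.6% lower), and in the triple mutant 26.5% (16.6% higher, 9.94% lower). Of the 41 genes called higher in Col-0, 32 were also called higher in the double mutant and 20 in the triple mutant. In pad4-1 30 were, and 16 were in all 3 mutants. The sign alone was the same for 39 in the double mutant, 39 in the triple mutant and 41 in pad4-1. Of the 19 called lower in Col-0, 13 were also called lower in the double mutant and 13 in the triple mutant. In pad4-1 14 were, and 8 were in all 3 mutants. The sign alone was the same for 17 in the double mutant, 18 in the triple mutant and 18 in pad4-1. The share of all 181 genes called the same way in all 3 mutants was not counted. AT2G43620 fell by 4.99 in the double and 5.58 in the triple mutant, and by 5.41 in pad4-1. CHI rose by 2.75, 1.75 and 3.13 in the same order. Over the 181 genes, as a description since genes are not replicates, the Col-0 difference correlated with that of the double mutant at r = 0.867, of pad4-1 at 0.925 and of the triple mutant at 0.792.

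Whether a difference departed from that of Col-0 was tested as an interaction, and the 3 tests share the Col-0 arrays. For the double mutant 0 genes (0%) passed in limma, with 23 at an unadjusted p under 0.05. For pad4-1 1 gene (0.552%) passed, and for the triple mutant 6 (3.31%; 2.21% higher, 1.1% lower), with 8 and 28 at an unadjusted p under 0.05. AT4G17470, an alpha/beta hydrolase gene, read 4.19, 5.43 and 4.66 with Psm and 3.64 and 3.03 with hrcC in Col-0, a rise of 1.43 that was 1.13 and not called without hrcC replicate 2. It rose by 3.59 in pad4-1, by 2.97 in the double mutant and by 4.64 in the triple mutant. Its excess over Col-0 in the double mutant, 1.54, did not pass. The excess over Col-0 was 2.16 in pad4-1 (SE 0.467, adjusted p = 0.0364 in limma) and 3.21 in the triple mutant (SE 0.467, adjusted p = 0.000171 in limma). The pad4-1 excess lost its call under 5 of the settings, such as quantile normalization (2.14, adjusted p = 0.0683 in limma), and without 7 of the 10 arrays left out in turn (1.86 to 2.28).

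AT1G54010 read 2.87, 3.73 and 3.22 with Psm and 4.23 and 4.16 with hrcC in Col-0, and was lower on all Psm arrays. In the triple mutant it rose instead, by 1.98, an excess of 2.90 (SE 0.376, adjusted p = 6.69e-05 in limma). The double mutant and pad4-1 had the same sign, at 0.56 and 0.51, but neither was called. Their excesses of 1.48 and 1.43 did not pass either. The triple mutant excess of AT4G17470 and AT1G54010 kept its call under every setting and without each array. TUB6 differed by -0.44 in the triple mutant (adjusted p = 0.265 in limma, not called), an excess over Col-0 of 1.46, and AT5G21105, an ascorbate oxidase-like gene, had an excess of 1.03. AT4G25900, a galactose mutarotase-like gene that rose by 1.08 in Col-0 (not called after quantile normalization, at 0.71, or without hrcC replicate 2, at 0.97), differed by -0.75 in the triple mutant, and its interaction was -1.84 (adjusted p = 0.0167 in limma). WRKY53 differed by -1.44 in the triple mutant, an interaction of -1.66 (adjusted p = 0.0369 in limma). It also fell in the double mutant, by 1.09 (called), but that interaction of -1.31 did not pass. In pad4-1 its interaction was -0.31. For TUB6 the interactions in the double mutant and pad4-1 were 0.57 and 1.06, and for AT4G25900 -0.48 and -0.50, none called. The triple mutant interactions of TUB6, AT5G21105, AT4G25900 and WRKY53 were not called when sets 1 and 2 alone were fitted with the block. They were also not called without hrcC replicate 2 of Col-0, where they stood at 1.17 (TUB6), 0.92 (AT5G21105), -1.73 (AT4G25900) and -1.52 (WRKY53). Of the 10 arrays left out in turn, 8 ended the call of TUB6, AT5G21105 and WRKY53, all but Psm replicate 2 of the triple mutant and hrcC replicate 1 of Col-0. For AT4G25900 4 did so, which were replicate 1 of the Psm arrays and replicate 2 of the hrcC arrays in both genotypes.

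**Figure D5:**
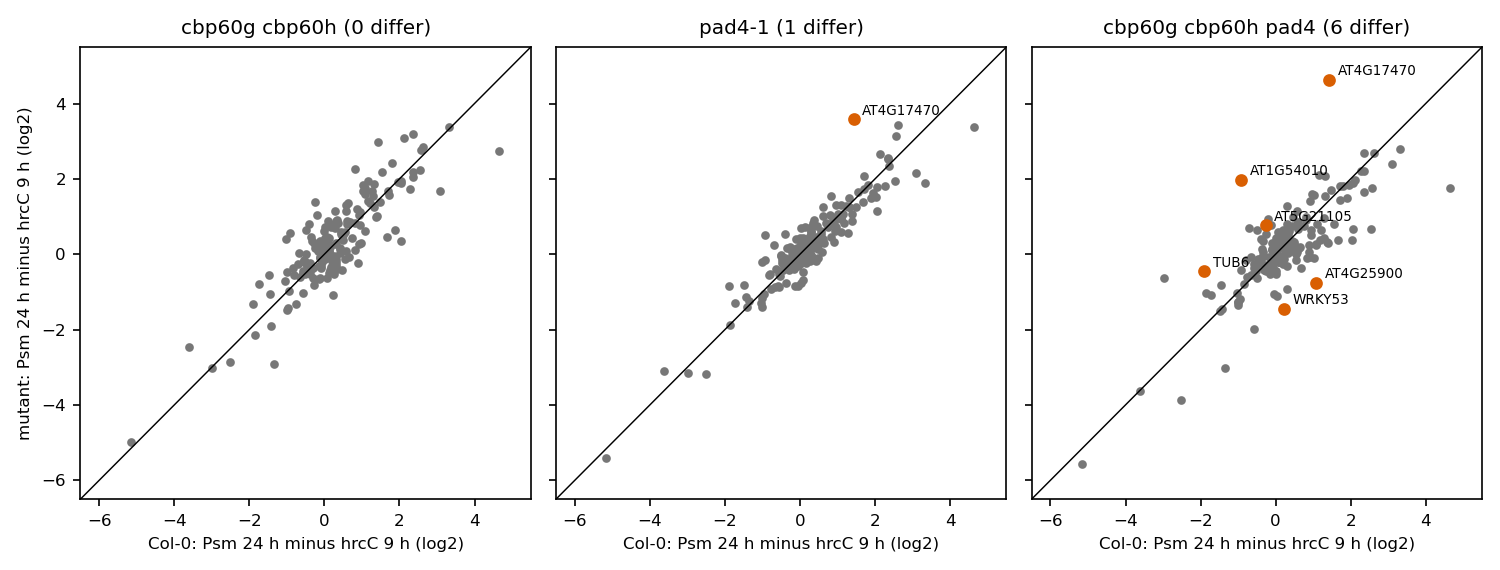
Difference in log2 brightness between Psm at 24 h and hrcC at 9 h for the 181 named genes, in Col-0 on the x axis and in each mutant on the y axis, with the line marking equal differences. Orange points are the genes whose difference departed from Col-0 in limma, which are 1 for pad4-1, 6 for the triple mutant and 0 for the double mutant.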

How the data were processed

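Leaf RNA was amplified and labelled with 1 dye per the labels' protocols. The deposited values were used as log2 brightness without further scaling. The log base was read from their range. For the scanner, background correction and normalization, details are not given in the sources used. Probes were named by GEO's platform table, whose names may be out of date, and 395 probes are unnamed. All 181 names matched the RefSeq gene table.

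A group-means model (limma 3.58.1, R 4.3.3, lmFit and eBayes) was fitted to 23 arrays in 9 groups (both treatments of 4 genotypes, and cbp60h with hrcC), which pools the spread over groups. P-values are two-sided, adjusted over 181 genes by Benjamini-Hochberg, and a call needs an adjusted p under 0.05. The labels call the sets biological replicates. They number the experiments, so a set pairs samples. Deviations from the group means correlated at 0.42 (set 1) and 0.118 (set 2) between same-set Col-0 samples. Of all 82 same-set pairs of groups 47 exceeded 0.1 (median 0.144). In a group of 2 arrays the deviations of both sets mirror each other, so these correlations are not independent of each other. The main fit has no term for the set, and fits with the set as a block are among the other settings. Named genes are the 15 largest rises and falls without overlap, list members, families and up to 5 interactions each way. LHCB4.3 and genes called in Col-0 outside these are additions. The members and lists were chosen with earlier results of these data known. With no signal over background deposited, the number of arrays limits the precision. On each of the 5 arrays 28.5% to 43.2% of the values equalled that of another probe, which also limits the resolution.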

Additional observations from a re-analysis of the deposited data

Results flagged for a closer look

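The 7 interactions called in limma, each the mutant's difference between Psm at 24 h and hrcC at 9 h minus that of Col-0, are listed because the difference between genotypes itself passed the test. For AT4G17470 it was 2.16 in pad4-1 and 3.21 in the triple mutant. In the triple mutant it was 2.90 for AT1G54010, 1.46 for TUB6, 1.03 for AT5G21105, -1.84 for AT4G25900 and -1.66 for WRKY53. No group had the 4 samples needed to look for a sample far from the others.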

How the results depend on the processing

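With the set as a fixed replicate block 71 genes were called (47 higher, 24 lower), all 60 among them. Of the 11 gained, 7 are given with the block above, and the others are AT2G18210 (1.36), AT2G26190 (0.56), AT5G15610 (-0.57) and CDI (0.64). Over all 576 probes 197 were called, 140 higher and 57 lower. Lower calls numbered 40 after quantile normalization and 29 after median centring. Leaving out 1 of the 5 arrays gave 41 to 59 calls, 26 to 38 higher and 12 to 21 lower. Interaction calls in the double mutant numbered 2 over all probes and 0 to 4 with 1 array left out. In pad4-1 they were 0 with sets 1 and 2 only, with only the genotypes compared, after quantile normalization, after median centring and over all probes, and 0 to 2 with 1 array left out. In the triple mutant they were 10 with a random block, 34 over all probes and 2 to 10 with 1 array left out.

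None of the 60 called genes changed sign under any setting run. Of the 121 genes not called, 30 were recomputed under each setting, and 28 values of 11 of them changed sign. WRKY22 was 0.0094 with the fixed block and 0.021 with sets 1 and 2 only. After quantile normalization UGT76B1 was -0.36, WRKY53 -0.038, CCS -0.061, AT2G19310 -0.16, AT2G39710 -0.39, AT4G38250 -0.12 and AT5G19110 -0.053. After median centring UGT76B1 was -0.19, AT2G19310 -0.013, AT2G39710 -0.18, AT4G38250 -0.066 and AT5G19110 -0.085. With 1 array left out the values ran from -0.218 to 0.275 for AT2G39710, -0.172 to 0.183 for UGT76B1, -0.276 to 0.0206 for WRKY22, -0.819 to 1.21 for AT2G19310, -0.509 to 0.00308 for AT2G04400, -0.616 to 0.0905 for GTR1, -0.133 to 0.412 for AT4G38250, -0.0896 to 0.353 for AT5G19110 and -0.182 to 2.09 for AT5G52760. The cause of these changes was not tested. With 2 hrcC arrays, leaving 1 out assumes that the other varies like the remaining groups.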

Other observations

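Of the 395 unnamed probes, 137 (34.7%) were called when all 576 probes were fitted together, 99 higher with Psm and 38 lower. The 5 genes called in Col-0 and in none of the 3 mutants were SPR1, AT2G22690, ATG8E, ARA6 and AT4G25900, with interactions called only for AT4G25900 in the triple mutant. AT2G22690 (0.42) lost its call without any 1 of the 5 arrays (0.34 to 0.50) and under 4 settings. SPR1 (0.90) and ARA6 (0.64) lost theirs under 4 settings, such as quantile normalization (0.45 and 0.40). SPR1 was also not called without Psm replicate 1 (0.72) or hrcC replicate 1 (0.72), and ARA6 not without Psm replicate 1 (0.51) or hrcC replicate 2 (0.46). ATG8E and AT4G25900 lost theirs as given above.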
